A study of Rattus norvegicus with 2 samples.

Results

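Hepatocyte identity transcription factors are the 9 genes Hnf4a, Foxa1, Foxa2, Foxa3, Onecut1, Cebpa, Prox1, Nr5a2 and Foxo1, taken here by gene name from a rat oligonucleotide array. They were covered by 14 of the 41012 distinct probes for genes, in 23 of 43379 spots, and they are 9 of 33719 gene names on the array. The samples were total RNA from livers of Wistar rats (spelled Wister in the labels), aged 7 weeks, that had eaten either choline-deficient or control chow for 10 days. Both RNAs were hybridised together on each of 2 two-colour arrays with the dyes swapped, so that choline-deficient RNA carried Cy5 on array 1 but Cy3 on array 2. The labels mention 4 choline-deficient rats, without stating if the arrays held different animals, pools or repeated extracts. Every limma p-value therefore rests on spread between 2 hybridisations alone, and that spread may be technical. In the main fit it came mostly from all genes tested (63.0 prior degrees of freedom), and little from the gene itself (1 residual degree of freedom). The standard error was thus 0.101 to 0.102 for each member tested, while the SD ran from 0.0022 (Hnf4a) to 0.14 (Onecut1). A p quoted from the authors' deposited table describes 1 array.

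These factors act on liver genes, and several of them form a network in which they bind regulatory DNA of one another. HNF4A, a nuclear receptor, and the forkhead pioneer factors FOXA1, FOXA2 and FOXA3 keep hepatocyte genes open and active. ONECUT1 (also called HNF6) acts with them in liver development and metabolism, CEBPA drives genes of the mature hepatocyte, PROX1 and NR5A2 (also called LRH-1) act on bile acid and lipid genes, and FOXO1 activates fasting genes until insulin signalling moves it out of the nucleus.

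Onecut1 RNA was 1.52-fold higher in choline-deficient liver than in control liver, while Foxa2 RNA was 1.40-fold lower and Nr5a2 RNA 1.33-fold lower. The other 5 members that could be tested, Hnf4a, Foxa1, Foxa3, Cebpa and Foxo1, did not pass the test, and Prox1 was too dim to test. The test was limma's moderated test of the dye-turned log2 ratio against 0, with Benjamini-Hochberg adjustment over the 18195 genes tested and a threshold of 0.05. It called 8.62% of all genes tested, 4.37% higher and 4.25% lower, and 1 of 8 members higher and 2 lower. The median log2 ratio of the 8 members was -0.13, against 0.00 for all genes tested.

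The share of gene spots well above background was 62.9% and 63.2% in Cy5 (choline-deficient on array 1, control on array 2). It was 54.2% and 53.5% in Cy3 (control on array 1, choline-deficient on array 2). No member spot was saturated or marked as an outlier. All 10 secreted protein genes taken as hepatocyte markers, among them Alb and Ttr, were well above background in both diets on both arrays. Their log2 ratios had medians of 0.24 for array 1 and -0.60 for array 2. These very bright probes, several of them target genes named here, thus differed between the arrays. With the dyes swapped, any dye difference counts in the SD between the arrays, and its part was not tested. In bulk tissue, fewer cells of a type and less RNA per cell cannot be told apart.

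**Figure D1:**
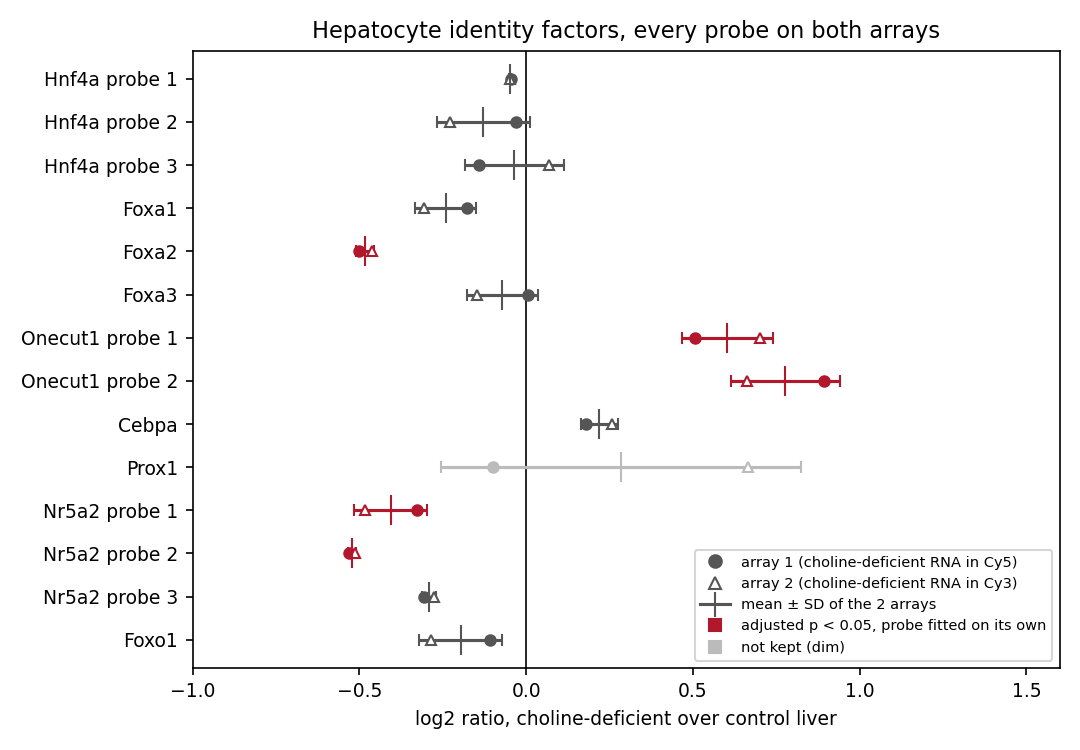
Log2 ratio of choline-deficient over control liver (x axis) for every probe of the 9 genes (rows, probes of a gene numbered from bright to dim), with circles for array 1, triangles for array 2 and bars for the mean ± SD of the 2 arrays; red marks an adjusted p under 0.05 with each probe fitted on its own. Both Onecut1 probes lie right of 0 on both arrays and the Foxa2 probe and all 3 Nr5a2 probes lie left of 0 on both.

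Hnf4a is the central nuclear receptor of this network and had 3 probes on chromosome 3 (rn4), of which the brightest lies from 154485054 to 154485113. Its normalised log2 intensity was 12.30 on array 1 and 12.39 on array 2 in choline-deficient liver, against 12.34 and 12.44 in control liver. The groups overlapped, and the log2 ratio was -0.05 ± 0.0022 (SD, n = 2 arrays; limma adjusted p = 0.930), with a 95% interval from -0.25 to 0.15 that leaves room for small changes either way. A probe 21024 bases upstream gave -0.13 ± 0.14. The third probe, printed in 10 spots on each array, measures the precision within an array: its log2 ratio ran from -0.24 through a median of -0.16 to -0.04 over the spots of array 1, and from -0.04 through 0.09 to 0.14 over those of array 2. The spots of the arrays did not overlap, so for this dim probe the arrays differed by more than the spots within them, with means of -0.14 and 0.07.

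Foxa2, the pioneer factor that also activates genes of fasting metabolism, fell. Its probe on chromosome 3 from 136739040 to 136739099 (rn4, minus strand) read 13.13 on array 1 and 13.08 on array 2 in choline-deficient liver, against 13.63 and 13.54 in control liver (normalised log2 intensity). Both choline-deficient readings were below both control readings, and the log2 ratio was -0.48 ± 0.03 (SD, n = 2 arrays; limma adjusted p = 0.000369). In the authors' deposited table its log10 ratio of Cy5 over Cy3 was -0.158 on array 1 (p = 0.0122) and 0.141 on array 2 (p = 0.0246), signs that the dye swap turns to the same direction.

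The other FOXA genes, which bind the same kind of site, did not pass. Foxa1 read 9.23 and 9.20 in choline-deficient liver, against 9.40 and 9.51 in control liver, with a log2 ratio of -0.24 ± 0.09 (limma adjusted p = 0.156). Both arrays placed Foxa1 lower, and its unadjusted 95% interval ran from -0.44 to -0.04. Foxa3 read 8.99 and 8.88 in choline-deficient liver, against 8.98 and 9.03 in control liver, with 0.0043 on array 1 and -0.15 on array 2 as log2 ratios (limma adjusted p = 0.873). The interval of Foxa2, from -0.68 to -0.28, did not overlap that of Foxa3, from -0.27 to 0.13, and did overlap that of Foxa1; the differences between the FOXA genes were not tested.

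Onecut1, a cut-homeodomain factor, was the member that rose. Its brighter probe, on chromosome 8 from 79672557 to 79672616 (rn4, plus strand), read 13.53 on array 1 and 13.65 on array 2 in choline-deficient liver, against 13.02 and 12.94 in control liver. The choline-deficient readings were above both control readings, and the log2 ratio was 0.60 ± 0.14 (SD, n = 2 arrays; limma adjusted p = 7.85e-06), the 179th highest mean of the 18195 genes tested. A second probe 6114 bases downstream read 10.38 and 10.29 in choline-deficient liver, against 9.49 and 9.63 in control liver. It gave 0.78 ± 0.16, or 1.71-fold, and was called with every kept probe fitted on its own, as 7.17% of all kept probes were. In the authors' deposited table the log10 ratio of Cy5 over Cy3 was 0.168 (p = 0.00796) on array 1 and -0.218 (p = 0.000725) on array 2 for the brighter probe, and 0.301 (p = 7.92e-06) and -0.208 (p = 0.00128) for the other.

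Since ONECUT1 is known in rodents to bind the Foxa2 and Hnf4a genes, the 250 bases before each RefSeq start (GRCr8) were searched on both strands for the letters ATTGATT, a core of its binding site. The search covered the 7 windows of the 6 members in the RefSeq table, and 2 windows held a match, one of Foxa2 and the more upstream one of the 2 Hnf4a windows, against 2.28% of 33469 windows of the same length. Both are shown 5′ to 3′ with the match in capitals, because they are the member windows with a match. The Foxa2 window is chr3:155927509-155927758 on the minus strand, with the match starting 136 bases before the RefSeq start, and the Hnf4a window is chr3:172605970-172606219 on the plus strand, with the match on the opposite strand starting 30 bases before it.
Foxa2: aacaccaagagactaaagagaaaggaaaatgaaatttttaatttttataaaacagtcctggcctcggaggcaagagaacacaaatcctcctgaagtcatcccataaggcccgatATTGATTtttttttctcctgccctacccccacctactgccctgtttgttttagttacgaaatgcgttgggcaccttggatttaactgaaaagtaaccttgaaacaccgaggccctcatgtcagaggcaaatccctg
Hnf4a: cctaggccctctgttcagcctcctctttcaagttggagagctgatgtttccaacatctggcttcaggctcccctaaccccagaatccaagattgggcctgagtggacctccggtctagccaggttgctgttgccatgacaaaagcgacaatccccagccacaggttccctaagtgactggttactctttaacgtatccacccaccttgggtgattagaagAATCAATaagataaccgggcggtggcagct
A match describes these letters and is not a measured binding site. Which of the 2 Hnf4a starts these livers used was not measured. The letters TGTTTAC (forkhead, in 3.21% of all windows), CAAAGTCCA (HNF4A, 0.338%), CAAGGTCA (NR5A2, 1.33%) and TTGCNNAA (CEBPA, 9.22%) were in 0 of the 7 member windows; none of these motifs overlaps the ATTGATT matches.

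**Figure D2:**
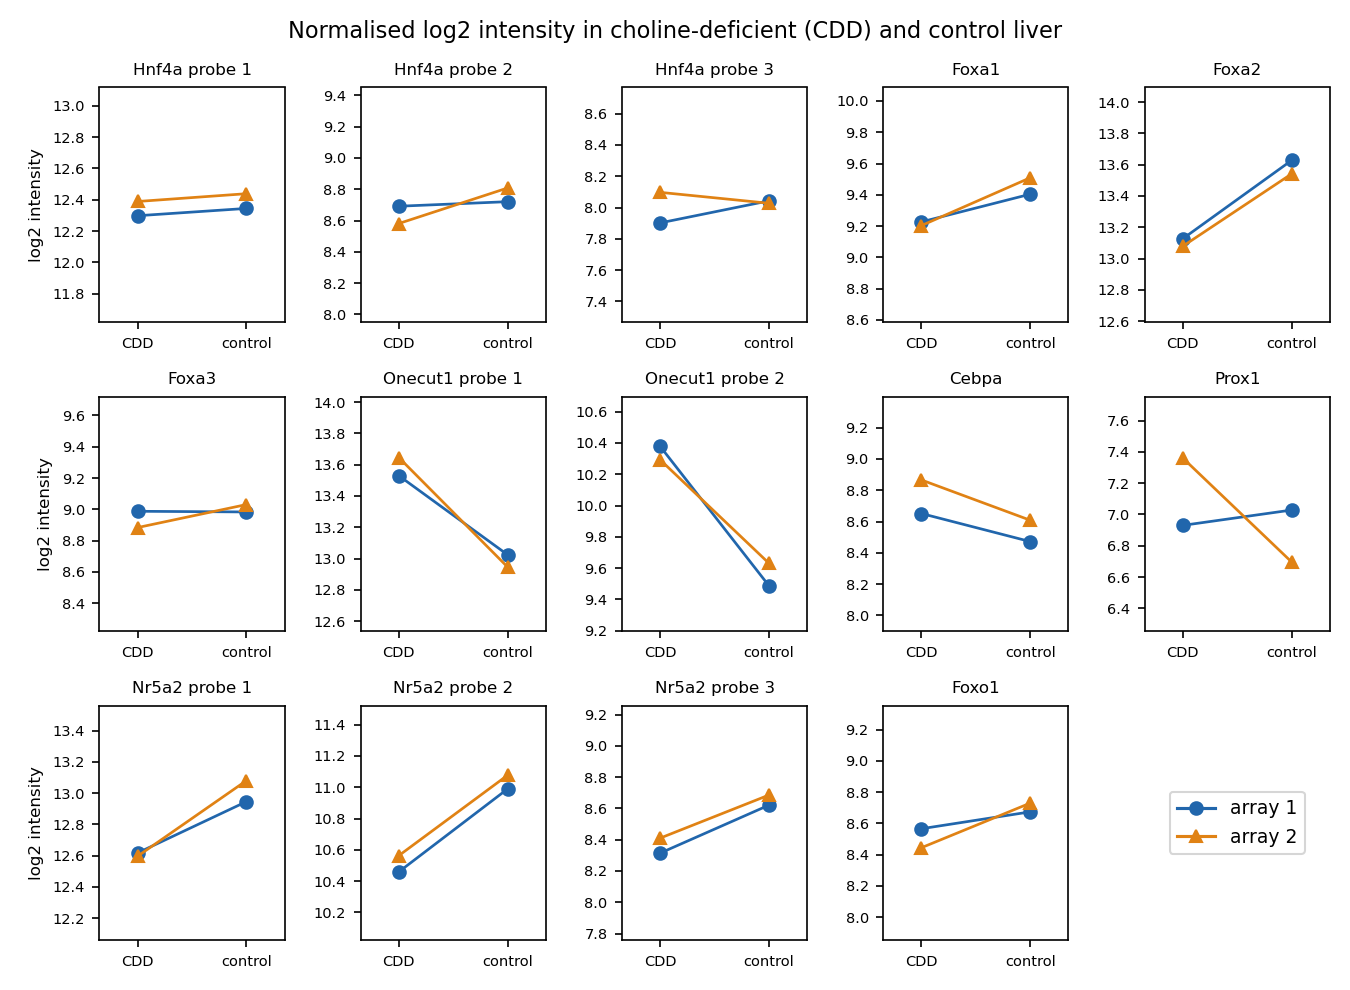
Normalised log2 intensity (y axis, each panel spanning the same width in log2 units) of every probe in choline-deficient (CDD, left) and control liver (right), with 1 line per array. The lines of Onecut1 slope down towards control on both arrays, those of Foxa2 and Nr5a2 slope up, and those of Prox1 run in opposite directions.

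Nr5a2, the orphan nuclear receptor that activates bile acid and cholesterol transport genes, fell. Its brightest probe, on chromosome 13 from 49929017 to 49929076 (rn4, minus strand), read 12.62 on array 1 and 12.60 on array 2 in choline-deficient liver, against 12.95 and 13.08 in control liver. The choline-deficient readings were below both control readings, and the log2 ratio was -0.41 ± 0.11 (SD, n = 2 arrays; limma adjusted p = 0.00379). A second probe, 1257 bases away, read 10.46 and 10.56 in choline-deficient liver, against 10.99 and 11.08 in control liver, with a log2 ratio of -0.52 ± 0.01. The third probe is shown because its last codon, in capitals, is a stop codon closing an otherwise open frame, which places it at the end of the coding sequence and the other 2 probes 1476 and 2733 bases further along the transcript strand.
Nr5a2: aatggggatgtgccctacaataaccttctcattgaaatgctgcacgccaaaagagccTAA
That coding probe, at 49931750 to 49931809, read 8.31 and 8.41 in choline-deficient liver, against 8.62 and 8.69 in control liver, and gave -0.29 ± 0.02. All 3 probes were lower on both arrays, and with every kept probe fitted on its own limma called the 2 downstream probes (adjusted p = 0.00992 and 0.000829) and not the coding probe (adjusted p = 0.0755).

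Cebpa, the leucine zipper factor of mature hepatocytes, read 8.65 and 8.87 in choline-deficient liver, against 8.47 and 8.61 in control liver. Its log2 ratio of 0.22 ± 0.06 was positive on both arrays and did not pass (limma adjusted p = 0.225). Foxo1, the insulin-regulated forkhead factor, read 8.57 and 8.44 in choline-deficient liver, against 8.67 and 8.73 in control liver, with -0.20 ± 0.13 (limma adjusted p = 0.313). Both control readings of Foxo1 were the higher ones. The probes lie on chromosome 1 from 87627054 to 87627113 for Cebpa and on chromosome 2 from 141201740 to 141201799 for Foxo1 (rn4).

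Prox1, a homeobox co-repressor of hepatocytes that also marks lymphatic endothelium, was well above background only in choline-deficient liver on array 2. Its probe, which spans 23985 bases of chromosome 13 in rn4 for 60 bases, so that its ends lie on both sides of an intron, read 6.93 and 7.36 in choline-deficient liver, against 7.03 and 6.70 in control liver. The arrays went opposite ways, with log2 ratios of -0.10 and 0.67, and no test or fold is given. In the authors' deposited table, its log10 ratio of Cy5 over Cy3 was -0.0447 on array 1 (p = 0.796) and -0.641 on array 2 (p = 3.88e-05).

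The calls of Onecut1, Foxa2 and Nr5a2 came from a fit with 63.0 prior degrees of freedom and were lost under 2 alternatives. With the deposited log ratio, which changes background, normalisation and prior at once, the values were 0.64, -0.50 and -0.42, with 2.43 prior degrees of freedom, and limma called none of them (adjusted p = 0.286, 0.325 and 0.382). With median centring the values were 0.78, -0.30 and -0.23, the SD between the arrays was 1.41 to 1.59, and none was called (adjusted p = 1.00 for each).

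**Figure D3:**
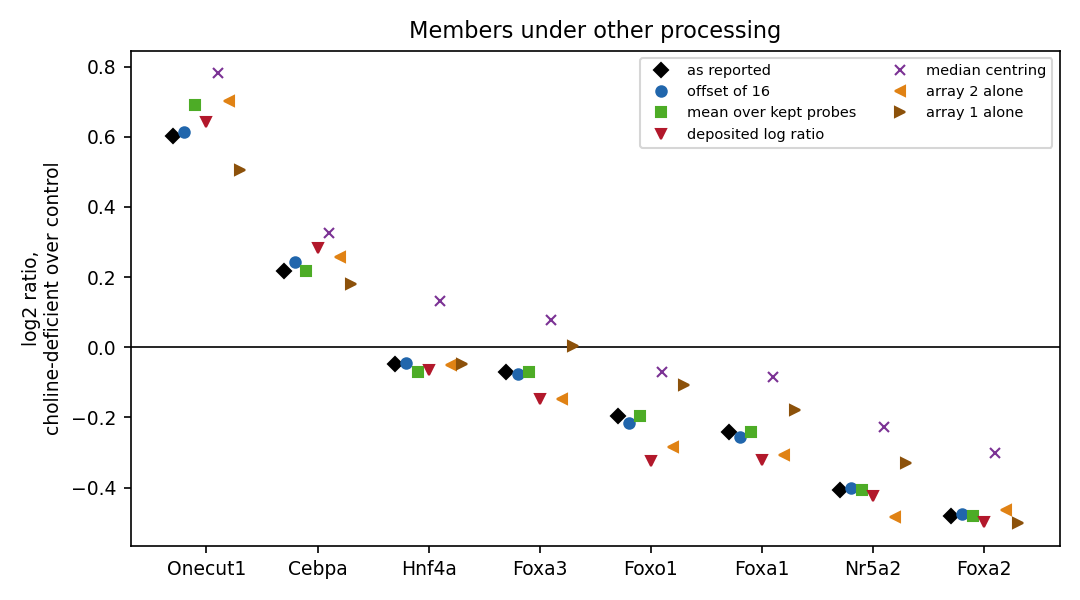
Log2 ratio of choline-deficient over control liver (y axis) for the 8 members tested, as reported and under 6 other settings (symbols). Onecut1 stays between 0.51 and 0.78, Foxa2 between -0.50 and -0.30 and Nr5a2 between -0.48 and -0.23, while Hnf4a and Foxa3 lie on either side of 0.

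Relatives of the members gave a separate comparison within families. Of 13 relatives listed, 9 were tested, 1 rose (all genes: 4.37%) and 8 did not pass, with a median log2 ratio of 0.05. The one that rose was Cebpd, a C/EBP family gene known from the acute phase response, at 0.84 on array 1 and 0.72 on array 2 (0.78 ± 0.09, 1.71-fold, limma adjusted p = 1.55e-08). Cebpb, another acute phase C/EBP gene, was at 0.23 ± 0.01 (limma adjusted p = 0.196), and Cebpg was at -0.0019 ± 0.15. Onecut2 (-0.14 ± 0.30 at its brightest probe) and Onecut3 (-0.06 ± 0.25) did not pass and differed in sign between the arrays. Other Onecut2 probes, at -0.23 ± 0.31 and -0.12 ± 0.12, were lower on both arrays and were not called on their own. Among forkhead genes, Foxo3 (0.14 ± 0.24), Foxo4 (-0.0039 ± 0.03) and Foxm1 (0.22 ± 0.09) did not pass, and a second Foxo3 probe was at -0.10. Nr5a1, the relative of Nr5a2 that acts in steroid-producing tissue, was at 0.05 ± 0.04 and was not well above background in control liver on either array. Hnf4g, Cebpe and Prox2 were too dim to test, and Foxo6 was not analysed here.

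Of 27 other liver transcription factors and co-regulators listed, 24 were tested, 5 fell (all genes: 4.25%) and none rose, with a median of -0.16. The T-box factor Tbx3 fell to the lowest ratio of them (-0.58 ± 0.02, limma adjusted p = 1.51e-05). The xenobiotic receptor Nr1i3 (-0.47 ± 0.03), the orphan receptor Nr2f2 (-0.41 ± 0.19) and the bile acid receptor Nr1h4 (-0.38 ± 0.05) fell too. So did Zbtb20 (-0.30 ± 0.02), a zinc finger repressor of fetal liver genes, whose limma adjusted p of 0.0499 lay at the threshold. Other Zbtb20 probes were at -0.28 and -0.23 and were not called on their own.

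Target genes known from the literature on each member were counted next. Of 42 distinct targets tested, 4 rose (9.52%), 12 fell (28.6%) and 26 did not pass, with a median log2 ratio of -0.16. Among all genes tested, 4.37% rose and 4.25% fell, with a median of 0.00. The lists below overlap, since 15 of the 42 targets stand in several of them. Of 17 HNF4A targets, 1 rose and 5 fell (median -0.16); 2 fell with an offset of 16, and 2 fell and 0 rose with an intensity trend in the variance. Apob, which builds the particles that carry triglyceride out of the liver, was at -0.59 ± 0.05 and G6pc, the glucose-releasing phosphatase, at -0.58 ± 0.15, while the lipoprotein genes Apoa4 (-0.42 ± 0.49) and Apoc3 (-0.40 ± 0.43) fell with a wide spread between the arrays. Apoa1, the main protein of high density lipoprotein, rose (0.40 ± 0.24).

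Of 10 FOXA targets, 1 rose, 2 fell and 7 did not pass. These were the tyrosine aminotransferase Tat (0.57 ± 0.13), and G6pc and the albumin gene Alb (-0.31 ± 0.23). With an offset of 16, an intensity trend, no dim filter or all probes used, 1 fell. Other Alb probes were at -0.37 ± 0.13 and -0.19 ± 0.50, the latter with opposite signs on the arrays. The median of this list was -0.17 over both arrays, but 0.07 on array 1 and -0.27 on array 2. Of 8 ONECUT1 targets, none rose, 2 fell and 6 did not pass (median -0.09). Cyp2c12, a sex-biased cytochrome P450 that HNF6 is known to activate in rat liver, fell 2.02-fold (-1.01 ± 0.08, limma adjusted p = 3.02e-12), and Pfkfb1, the bifunctional enzyme gene through which HNF6 was first studied, was at 0.17 ± 0.10 without passing.

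Of 10 CEBPA targets, 2 rose, 5 fell and 3 did not pass (median -0.25), and 3 fell with an offset of 16, an intensity trend, no dim filter or all probes used. The glucuronosyltransferase Ugt2b1 rose (2.99 ± 0.21), and the alcohol dehydrogenase Adh1 (-1.33 ± 0.04), the liver glycogen synthase Gys2 (-0.61 ± 0.15) and G6pc fell. The haptoglobin gene Hp was called lower on average and had opposite signs on the arrays (0.16 and -0.88). Of 10 tested NR5A2 targets, Apoa1 rose, 1 fell and 8 did not pass (median -0.08); 0 rose with an intensity trend. The one that fell was Gnmt, the glycine N-methyltransferase (-1.50 ± 0.02, 2.82-fold lower), known from mouse as an NR5A2 target, and the bile acid synthesis genes Cyp7a1 (0.15 ± 0.08) and Cyp8b1 (-0.09 ± 0.08) did not pass.

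Of 8 tested FOXO1 targets, 1 rose and 3 fell (median -0.14). G6pc, the insulin receptor substrate Irs2 (-0.50 ± 0.28) and Apoc3 fell, while Pdk4, a kinase that restrains glucose oxidation, rose (0.33 ± 0.23) at its brighter probe with 0.08 at another, a call lost with an offset of 16, without the dim filter and with the mean over probes. Pck1 (-0.15 ± 0.01) and Igfbp1 (0.07 ± 0.03), both classic FOXO1 targets, did not pass. Of 10 tested genes that carry the insulin and AKT signal to FOXO1, 2 rose (1 with an intensity trend) and 1 fell (median 0.06). The kinase Sgk1 (0.37 ± 0.06) and the AKT inhibitor Trib3 (0.40 ± 0.25) rose, Irs2 fell, and the kinases Akt1 (0.07 ± 0.02) and Akt2 (0.03 ± 0.01) did not pass.

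**Figure D4:**
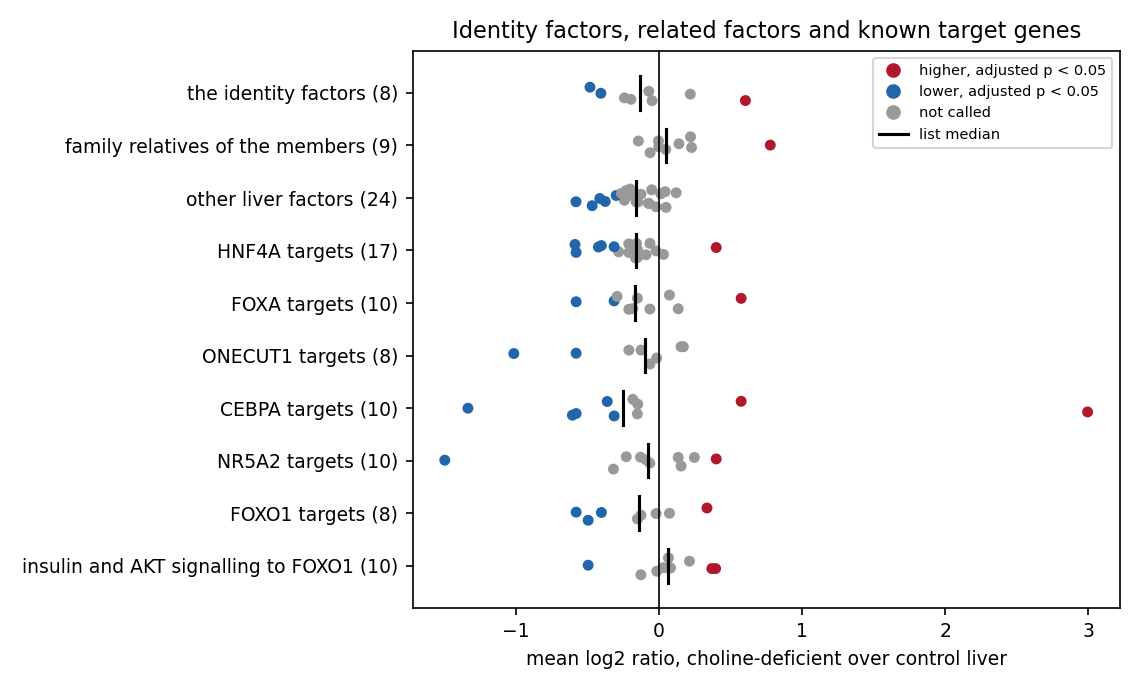
Mean log2 ratio of choline-deficient over control liver (x axis) of each gene tested in each list (rows, number tested in brackets), with red for higher, blue for lower and grey for not called at an adjusted p of 0.05, and a bar for the list median. The medians run from -0.25 for the CEBPA targets to 0.06 for the insulin and AKT genes, and the point farthest right is Ugt2b1 at 2.99.

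Markers of other cell types were measured beside these results. The test called 4.37% of all genes tested higher and 4.25% lower, the shares to set beside each count below. Of 7 cholangiocyte markers tested (8 listed), Spp1, which macrophages also express, rose (1.52 ± 0.15). Krt19 (-0.02 ± 0.11) and Sox9 (0.04 ± 0.10) did not pass and Krt7 was too dim to test. Epcam, at 0.25 and 0.28 on the arrays, did not pass (0.27 ± 0.02, limma adjusted p = 0.100). With an intensity trend, 2 of the 7 were called higher. The summed linear intensity of the 7 markers was 2689 and 2459 in choline-deficient liver, against 1879 and 1762 in control liver. Without Spp1, left out after the sums were seen, the other 6 summed to 1520 and 1515 in choline-deficient liver, against 1499 and 1407 in control liver. Of 9 Kupffer cell and macrophage markers tested (10 listed), Marco (0.91 ± 0.13) and Lyz2 (0.69 ± 0.24) rose. Cd14 fell (-0.41 ± 0.01, with -0.24 at another probe). The 9 markers had summed intensities of 27262 and 29777 in choline-deficient liver, against 32332 and 30348 in control liver. The brightest of them, Clec4f, a lectin of resident Kupffer cells, was at -0.29 ± 0.23 without passing (limma adjusted p = 0.0627), and the other 8 summed to 10867 and 11114 in choline-deficient liver, against 9800 and 9928 in control liver. Of 8 stellate cell markers tested (10 listed), Col1a1 (0.53 ± 0.02, with 0.01 and -0.06 at other probes) and Dcn (0.34 ± 0.09) rose. Only 1 rose with no dim filter or with the mean over kept probes. The 8 summed to 8434 and 8779 in choline-deficient liver, against 8183 and 8618 in control liver. Without Col1a1 the sums were 6830 and 7142, against 7081 and 7469 in control liver. Without Lrat, the brightest, they were 4838 and 4884, against 4203 and 4572 in control liver. Of 6 endothelial markers tested (10 listed), Kdr fell (-0.46 ± 0.17), with 22716 and 22922 in choline-deficient liver, against 32352 and 28209 in control liver, and without Kdr the other 5 summed to 3157 and 3006 in choline-deficient liver, against 3123 and 3084 in control liver. Of the smaller sets, Gzma fell among 6 lymphocyte markers (-0.32 ± 0.05, list median 0.05). Its call was lost with an offset of 16 and without the dim filter. The 6 lymphocyte markers summed to 1763 and 1721 in choline-deficient liver, against 1841 and 1846 in control liver. Without Gzma the other 5 summed to 1152 and 1092 in choline-deficient liver, against 1098 and 1042 in control liver. Hbb-b1 fell among 4 red cell genes (-0.44 ± 0.13, list median -0.22), and Fabp2 rose among 5 pancreas and gut genes (0.61 ± 0.01, list median -0.04). Among hepatocyte secreted protein genes, Apoa1 rose and Fgb (-0.67 ± 0.31), Fga (-0.53 ± 0.27), Rbp4 (-0.34 ± 0.28) and Alb fell, of 10 (2 fell with an offset of 16, no dim filter, an intensity trend or every probe fitted on its own, and 0 rose with the trend), with 1081641 and 837501 in choline-deficient liver, against 1018724 and 1275011 in control liver. The part of cell composition in the ratios of Onecut1, Foxa2 and Nr5a2 was not tested.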

How the data were processed

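The deposited scanner files hold mean and background intensity for each dye, read by the authors with Agilent Feature Extraction, version 9.5.3.1 per the file headers and 9.5 per the submitters' processing notes. The headers give rn4 as the build of the probe coordinates. The authors' deposited log10 ratio is Cy5 over Cy3 processed signal, and its deposited p-value is, per the file headers, from an error model applied inside a single array. The series table equalled that log10 ratio within 1% on 45018 of 45018 rows of both arrays (median 0 in each column, direction Cy5 over Cy3, not turned for the swap) and was used for nothing else.

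Signals were corrected with limma 3.58.1 in R 4.3.3 (normexp, offset 50, mean signal and median background) and loess-normalised array by array, control spots having weight 0. Dim spots thereby get ratios nearer to 0. Outlier-marked spots were dropped, and repeated spots averaged per probe. A probe was kept if the same diet was well above background on both arrays (22364 probes), and each gene was taken by its brightest kept probe. Ratios, turned to choline-deficient over control, were tested against 0 with lmFit and eBayes (1 residual degree of freedom, two-sided). Normalised log2 intensities per diet followed A-quantile scaling. The procedure was tested on simulated data. Sequences are from the array files and RefSeq (GRCr8), in which 6 of the 9 members matched the promoter table.

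The members, the gene lists and the tests were chosen with earlier results of these data known. The naming rule takes all members with every probe, the family relatives, and up to 4 called genes of each list with the largest mean ratios. Other names (Zbtb20, Hp, Pfkfb1, Cyp7a1, Cyp8b1, Pck1, Igfbp1, Akt1, Akt2, Krt19, Sox9, Epcam) were chosen after their values were seen. Ttr, Krt7, Clec4f and Lrat are also outside the rule, Clec4f and Lrat being named as the brightest markers of their lists. The alternatives were a lower offset, the deposited log ratio, median centring, no dim filter, averaging or fitting all probes, 2 other variance priors, and each array alone. Gene symbols were used as printed in the scanner files.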

Additional observations from a re-analysis of the deposited data

How the results depend on the processing

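Onecut1 remained called higher and Foxa2 and Nr5a2 called lower with an offset of 16, without the filter on dim probes, with the mean over kept probes, with every probe fitted on its own, with an intensity trend and with robust eBayes. With the deposited log ratio, limma called 0 members higher and 0 lower, and 0 of all 18195 genes (2122 at an unadjusted p under 0.05). Onecut1 was then at 0.64, Foxa2 at -0.50 and Nr5a2 at -0.42. The members not called in the main fit were at -0.32 (Foxa1), -0.32 (Foxo1), 0.28 (Cebpa), -0.15 (Foxa3) and -0.07 (Hnf4a). With median centring limma also called 0 members and 0 genes (19 at an unadjusted p under 0.05). Onecut1 was at 0.78, Foxa2 at -0.30 and Nr5a2 at -0.23, and Hnf4a and Foxa3 changed sign to 0.13 and 0.077. The SDs of the members between arrays were then 0.76 to 1.59. Foxa3 was at 0.0043 on array 1 and -0.15 on array 2, and no other member tested changed sign on a single array: Onecut1 was at 0.51 and 0.70, Foxa2 at -0.50 and -0.46, Nr5a2 at -0.33 and -0.48, Cebpa at 0.18 and 0.26, Foxa1 at -0.18 and -0.31, Foxo1 at -0.11 and -0.29, and Hnf4a at -0.05 on both. Of the distinct related factors, targets and insulin signalling genes, 7 were called higher and 17 lower as reported, with 11 lower at an offset of 16 and 0 in either direction with the deposited log ratio or median centring. The cause of these losses was not tested. Each array holds both diets, so the ratio tested is already paired within the array, and no replicate block could be added to it. The 2 arrays limit the precision of every value, and a single array gives no test.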
